A study of Homo sapiens with 24 samples.

Results

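The 10 keratin genes described here are KRT5, KRT6A, KRT6B, KRT14 and KRT17, which mark basal and stratified epithelium, KRT7, KRT8, KRT18 and KRT19, which mark simple or luminal epithelium, and the hair keratin KRT81. They were found by matching the Ensembl identifiers of the deposited gene tables to these symbols, and all 10 had a row among the 37416 genes. RNA from 4 lines of triple-negative breast cancer (MDAMB468, HCC1806, MDAMB231 and BT549) was sequenced after ribosomal RNA depletion, with 3 libraries, labelled biological replicates, for each of 2 lentiviral short hairpins per line, or 24 libraries in 8 groups. The control hairpin is shNT (non-targeting) and the other, shADAR1, targets ADAR1, the double-stranded RNA adenosine deaminase encoded by ADAR. Infection lasted 24 h in both arms with protamine (10 µg/ml), followed by 72 h of puromycin (2 µg/ml). The groups therefore share infection and drug selection, no uninfected cells were analysed here, and each line is a single culture-derived model of tumour cells without stroma. The question the design poses is what ADAR1 knockdown changes in each line.

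Keratins are the intermediate filament proteins of epithelial cells. A type I (acidic) keratin pairs with a type II (neutral to basic) keratin, and the pairs polymerise into filaments that are anchored at desmosomes and hemidesmosomes. KRT5 with KRT14 forms the network of basal and myoepithelial cells, KRT6A and KRT6B with KRT16 and KRT17 appear in activated and proliferating epithelium, and KRT8 with KRT18 is the pair of simple epithelia such as the luminal layer of the breast, where KRT7 and KRT19 are also made. In breast pathology KRT5, KRT14 and KRT17 are used as markers of basal-like tumours.

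The type II genes (KRT5, KRT6A, KRT6B, KRT7, KRT8, KRT81) and the type I gene KRT18 lie together on chromosome 12, and the type I genes KRT14, KRT17 and KRT19 lie on chromosome 17. In the deposited coordinates KRT5 spans chr12:52514575-52520687, KRT6A chr12:52487174-52493257 and KRT6B chr12:52446651-52452126, each on the minus strand. KRT14 spans chr17:41582279-41586921 and KRT19 chr17:41523617-41528308, also on the minus strand. The chromosome, span and strand of 9 of the 10 matched GENCODE release 29 on GRCh38, and those of KRT17 (chr17:41619437-41624842 in the files) differed from it.

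KRT6A, KRT6B and the neighbouring KRT6C are near-identical copies, so a sequenced fragment can be hard to place. Their coding sequences have 1692 bases each, with 42 mismatches between KRT6A and KRT6B (97.5% identity), 35 between KRT6A and KRT6C and 25 between KRT6B and KRT6C. The stretch from coding base 663 to 722 is shown because KRT6A and KRT6B differ most there within a window of 60 bases. It lies in 1 coding exon, was read from the GENCODE 29 reference on GRCh38, and is given 5′ to 3′ along the transcript with capitals at the 9 positions where KRT6A and KRT6B differ.
KRT6A, chr12:52491555-52491614, minus strand: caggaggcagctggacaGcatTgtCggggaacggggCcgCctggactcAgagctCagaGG
KRT6B, chr12:52450439-52450498, minus strand: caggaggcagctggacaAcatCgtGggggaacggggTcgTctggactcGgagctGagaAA
KRT6C, chr12:52472099-52472158, minus strand: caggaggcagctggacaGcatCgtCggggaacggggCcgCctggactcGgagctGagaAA
In this stretch KRT6C has 5 mismatches to KRT6A and 4 to KRT6B, so it carries letters of both. Over the whole transcript, 39.1% of the 50-base windows of KRT6A and 47.1% of those of KRT6B also occurred in another gene. The share was 44.6% for KRT81, mostly shared with the hair keratin KRT86, 43.4% for KRT18, 23.8% for KRT14, 16% for KRT17, and between 1.79% (KRT19) and 10.8% (KRT7) for the other 4. KRT8 and KRT18 lie on opposite strands and share 525 exon bases, or 10.48% of the listed KRT8 length and 16.31% of that of KRT18. Windows of KRT14, KRT17 and KRT18 also matched pseudogenes, such as KRT16P6, KRT17P1 and KRT18P11. How the counting treated strand and fragments with several matches is not given in the sources used here. The values of KRT6A, KRT6B, KRT81, KRT14, KRT17 and KRT18 and of the KRT8 and KRT18 overlap are therefore uncertain to that extent.

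Total counts per library ran from 10370645 to 97218217, and replicates of every group differed by more than counting error. ADAR, the check of the labels, was at 21.8% of control in MDAMB231, 26.1% in BT549, 33.1% in HCC1806 and 37.1% in MDAMB468. Of the epithelial markers, the 5 genes EPCAM, CDH1, CLDN4, KRT8 and KRT18 summed to between 1.91 and 3.21 CPM (TMM-scaled counts relative to library depth) in the BT549 controls, with EPCAM at 0, against 2030 to 2230 in HCC1806, 714 to 839 in MDAMB231 and 2320 to 2710 in MDAMB468. The mesenchymal markers VIM, CDH2, ZEB1 and FN1 summed to 4190 to 5770 CPM in BT549 and 4610 to 5240 in MDAMB231, against 78.7 to 275 in HCC1806 and 48.9 to 68.0 in MDAMB468. The labels call all 4 lines breast cancer cells, and in BT549 the defining epithelial genes are at or near 0. The T cell marker list summed to at most 0.12 CPM, the endothelial list to at most 4.89 and the macrophage list to at most 14.8 CPM in any library.

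The 4 lines fell into different keratin states. Levels are compared between genes per kilobase of the listed length (RPKM, from counts scaled by TMM). Under the control hairpin the 10 keratins summed to 0.44 ± 0.068 RPKM in BT549 (SD, n = 3, as for all values with ±), 355 ± 18.6 in MDAMB231, 1770 ± 244 in MDAMB468 and 2050 ± 37.3 in HCC1806. As a share of all counts they held 0.000159 ± 3.6e-05% in BT549 and 0.645 ± 0.00736% in HCC1806. Basal keratins made up 52.0 ± 5.61% of the summed level in HCC1806, 25.9 ± 3.08% in MDAMB468 and 0.115 ± 0.124% in MDAMB231, where the simple keratins held 94.3 ± 2.90%. The plot of summed levels by class shows BT549 without a visible bar, MDAMB231 with simple keratins and KRT81, and the other lines with both classes.

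**Figure D1:**
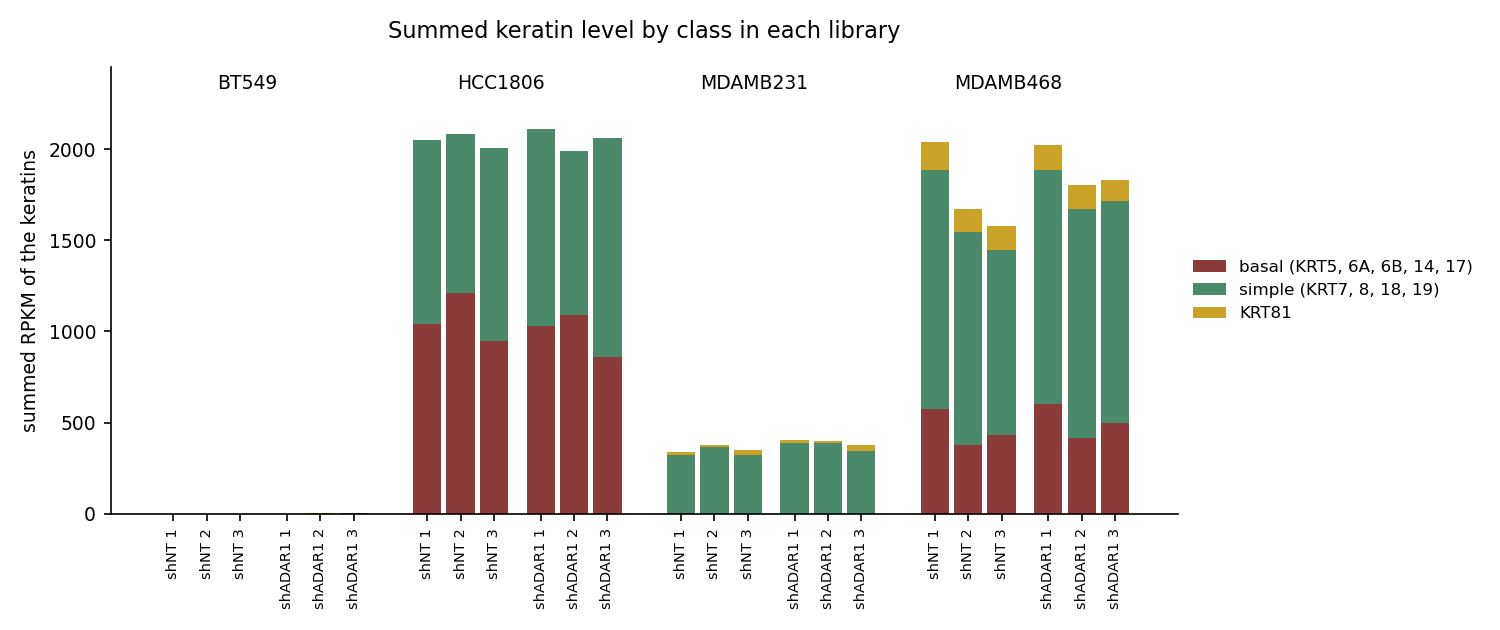
Stacked bars give the summed RPKM of the basal keratins, the simple keratins and KRT81 in each of the 24 libraries, by line, hairpin and replicate. The control sums average 2050 in HCC1806, 1770 in MDAMB468, 355 in MDAMB231 and 0.44 in BT549, and the basal class is visible in HCC1806 and MDAMB468.

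In a joint test of the control libraries, the level of all 10 keratins differed between the lines (edgeR quasi-likelihood test, Benjamini-Hochberg adjusted p under 0.05), where 85.9% of all 21352 tested genes did, so the count of 10 is not far from what most genes show. All 10 had passed the filter on low counts, through the lines where they are high. Pair by pair, all 10 were lower in BT549 than in HCC1806, where 63.5% of all genes differed and 33.9% were lower. All 10 were also lower in BT549 than in MDAMB468 (background 61%, lower 30.5%). Between BT549 and MDAMB231 6 of 10 differed, all lower in BT549 (background 56.5%, lower 28.1%), namely KRT7, KRT8, KRT18, KRT19, KRT81 and KRT17. MDAMB231 differed from HCC1806 in all 10 (background 59%, higher in HCC1806 31.4%), 9 lower in MDAMB231 and KRT81 higher, and from MDAMB468 in all 10, each lower in MDAMB231 (background 61.8%, lower 30.6%). HCC1806 and MDAMB468 differed in 7 of 10 (background 62.9%). The call of KRT17 between BT549 and MDAMB231 was lost without the MDAMB231 control replicate 1 (edgeR adjusted p = 0.051), and without the BT549 control replicate 2 KRT5 passed as well, higher in BT549 (log2 difference 3.30, adjusted p = 0.0327), which gives a range of 5 to 7 called. DESeq2 called KRT14 there too, lower in BT549 (log2 difference -5.86, adjusted p = 0.00318), on 0 counts against 10.

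Among the basal keratins, KRT5, the type II partner in basal cells, read 1360, 1180 and 1170 CPM in the HCC1806 control libraries and 1310, 1170 and 1130 CPM in those of MDAMB468. These ranges overlap, and the difference of 0.04 on the log2 scale (SE 0.207) did not pass the test (edgeR adjusted p = 0.889). MDAMB231 had 1 KRT5 count in its control libraries together and BT549 had 12. The difference of BT549 over MDAMB231 did not pass the test and is left unresolved (log2 difference 2.61, SE 1.48, edgeR adjusted p = 0.142). KRT5 was the gene with rank 92 of 21352 by RPKM in HCC1806 and rank 65 in MDAMB468.

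KRT6A, an activation keratin, was the highest of the 10 per kilobase in HCC1806, at 636 ± 95.9 RPKM and rank 43 of 21352. Its control libraries read 1640, 2180 and 1770 CPM in HCC1806 and 4.32, 1.62 and 2.64 CPM in MDAMB468. The ratio of the means was 651, and the groups did not overlap (log2 difference 9.41, SE 0.399, edgeR adjusted p = 2.14e-14). BT549 had 0 counts in 3 control libraries, which puts HCC1806 at least 104000-fold higher, taking a floor of 3 counts over the group. KRT6B, its near copy, was at 16.4, 22.1 and 13.4 CPM in HCC1806 and 20, 12.8 and 14.7 CPM in MDAMB468. Its ranges overlap, and the log2 difference of 0.13 (SE 0.238) did not pass the test (edgeR adjusted p = 0.666).

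The ratio of KRT6B to KRT6A counts was 0.00924 ± 0.00144 in HCC1806 and 6.06 ± 1.70 in MDAMB468. KRT6C stood at 0.0209 ± 0.000543 of KRT6A in HCC1806 and at 1.23 ± 0.708 in MDAMB468. The 3 copies thus stood in different proportions in the 2 lines. The part of fragments placed on the wrong copy in the small HCC1806 rows of KRT6B and KRT6C was not tested. With the 3 copies summed before the fit, HCC1806 remained above MDAMB468 (log2 difference 6.47, SE 0.281, edgeR adjusted p = 3.06e-14).

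KRT14, the type I partner of KRT5, read 184, 187 and 20.8 CPM in HCC1806 and 21.9, 13.3 and 14.5 CPM in MDAMB468. Replicate 3 of HCC1806 lies within the MDAMB468 range, and the other HCC1806 libraries lie far above it. The log2 difference was 2.98 (SE 0.659, edgeR adjusted p = 0.000486), and 3.48 (SE 0.318, adjusted p = 1.14e-08) with both HCC1806 libraries numbered 3 left out. The KRT5 to KRT14 ratio per kilobase was 3.92, 3.36 and 29.9 in the HCC1806 controls and 31.7, 46.5 and 41.5 in those of MDAMB468, so KRT5 exceeded its partner in each of these libraries. MDAMB231 had 10 KRT14 counts in all and BT549 had 0.

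KRT17, a type I keratin of activated and basal-like epithelium, read 198, 255 and 136 CPM in HCC1806 and 632, 228 and 387 CPM in MDAMB468. The ranges overlap, and the higher mean in MDAMB468 (ratio 2.12) passed the test only narrowly (log2 difference -1.08, HCC1806 over MDAMB468, SE 0.454, edgeR adjusted p = 0.0435). The call was lost when HCC1806 control replicate 1 (adjusted p = 0.0829) or 3 (0.145), MDAMB468 control replicate 1 (0.254) or 3 (0.0598), MDAMB231 control replicate 3 (0.0525) or MDAMB468 shADAR1 replicate 3 (0.0525) was left out, with both HCC1806 libraries numbered 3 left out (0.123), and with DESeq2 (0.354). KRT17 was low in MDAMB231, at 17, 6 and 23 counts, and at 0 in BT549.

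Among the simple keratins, KRT8 and KRT18 are the founding pair. KRT8 read 1010, 883 and 932 CPM in HCC1806, 441, 504 and 456 in MDAMB231, and 1560, 1390 and 1350 in MDAMB468, with no overlap between the 3 lines. It was higher in MDAMB468 than in HCC1806 (log2 difference -0.61, HCC1806 over MDAMB468, SE 0.103, edgeR adjusted p = 1.93e-05). In BT549 it held 32, 42 and 36 counts. KRT18 read 481, 501 and 514 CPM in HCC1806 and 487, 423 and 410 in MDAMB468, ranges that overlap (log2 difference 0.18, SE 0.173, edgeR adjusted p = 0.376), and 196, 252 and 221 CPM in MDAMB231. BT549 had 1 KRT18 count beside 110 of KRT8. Per kilobase KRT8 stood at 1.21 ± 0.113 times KRT18 in HCC1806, 1.35 ± 0.0829 times in MDAMB231 and 2.09 ± 0.0306 times in MDAMB468.

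KRT19, the smallest keratin, which lacks the usual tail domain, was the highest of the 10 per kilobase in MDAMB468 (578 ± 89.5 RPKM, rank 29 of 21352) and in MDAMB231 (121 ± 12.5 RPKM). It read 992, 653 and 1010 CPM in HCC1806, 291, 306 and 250 in MDAMB231, and 1540, 1390 and 1120 in MDAMB468, and no count in BT549. MDAMB468 exceeded HCC1806 by a ratio of 1.52 (log2 difference -0.61, HCC1806 over MDAMB468, SE 0.191, edgeR adjusted p = 0.00882), a call that was lost without HCC1806 control replicate 2 (adjusted p = 0.0655). KRT7 was higher in HCC1806 (962, 1070 and 1160 CPM) than in MDAMB468 (783, 685 and 597), with no overlap (log2 difference 0.63, SE 0.141, edgeR adjusted p = 0.000471). In MDAMB231 KRT7 read 189, 224 and 220 CPM, and in BT549 40, 26 and 34 counts.

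KRT81, a type II keratin of the hair cortex that some breast cancer cells also make, ordered the lines unlike either class. It read 302, 245 and 251 CPM in MDAMB468, 35.1, 20.2 and 57.6 in MDAMB231, 1.89, 1.91 and 1.00 in HCC1806, and 0.248, 0.262 and 0.233 in BT549. Each of the 4 ranges stood apart from the others, and MDAMB468 was 166 times HCC1806 by the ratio of means (log2 difference -7.41, HCC1806 over MDAMB468, SE 0.427, edgeR adjusted p = 6.18e-13). KRT81 is the 1 keratin of the 10 that was higher in MDAMB231 than in HCC1806, by a ratio of 23.5. KRT86, its near copy, took 1.92 ± 0.0771% of the summed KRT81 and KRT86 counts in MDAMB468 and 63.4 ± 16.7% in HCC1806. With both copies summed, MDAMB468 still exceeded HCC1806 (log2 difference -5.90, HCC1806 over MDAMB468, SE 0.350, edgeR adjusted p = 1.04e-12).

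Per kilobase of the listed length the order within a line also differed. In HCC1806 the order was KRT6A, KRT19 (380 ± 86.7 RPKM), KRT5 (288 ± 24.1), KRT7 (260 ± 24.2), KRT8 (188 ± 12.3), KRT18 (155 ± 5.17), KRT17 (77.5 ± 23.6), KRT14 (57.2 ± 41.7), KRT6B (7.58 ± 1.93) and KRT81 (0.831 ± 0.269), where the ranges of KRT19, KRT5 and KRT7 overlap, as do those of KRT17 and KRT14 and those of KRT14 and KRT6B. In MDAMB468 KRT19 was followed by KRT8 (286 ± 22.7 RPKM) and KRT5 (280 ± 22.0), which overlap, by KRT7 (168 ± 22.7), KRT17 (164 ± 80.2), KRT81 (138 ± 16.1) and KRT18 (137 ± 12.8), which overlap as well, and by KRT14 (7.28 ± 2.04) and KRT6B (6.96 ± 1.64), which overlap, and KRT6A (0.976 ± 0.466). In MDAMB231 KRT19 was followed by KRT8 (93.2 ± 6.52 RPKM), KRT18 (69.3 ± 8.59), KRT7 (51.5 ± 4.72) and KRT81 (19.5 ± 9.78). Summed type II keratin exceeded type I 2.08 ± 0.287 times in HCC1806, against 0.867 ± 0.108 in MDAMB231 and 1.00 ± 0.0799 in MDAMB468. KRT6A gave 636 of the 1380 RPKM of type II keratin in HCC1806.

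**Figure D2:**
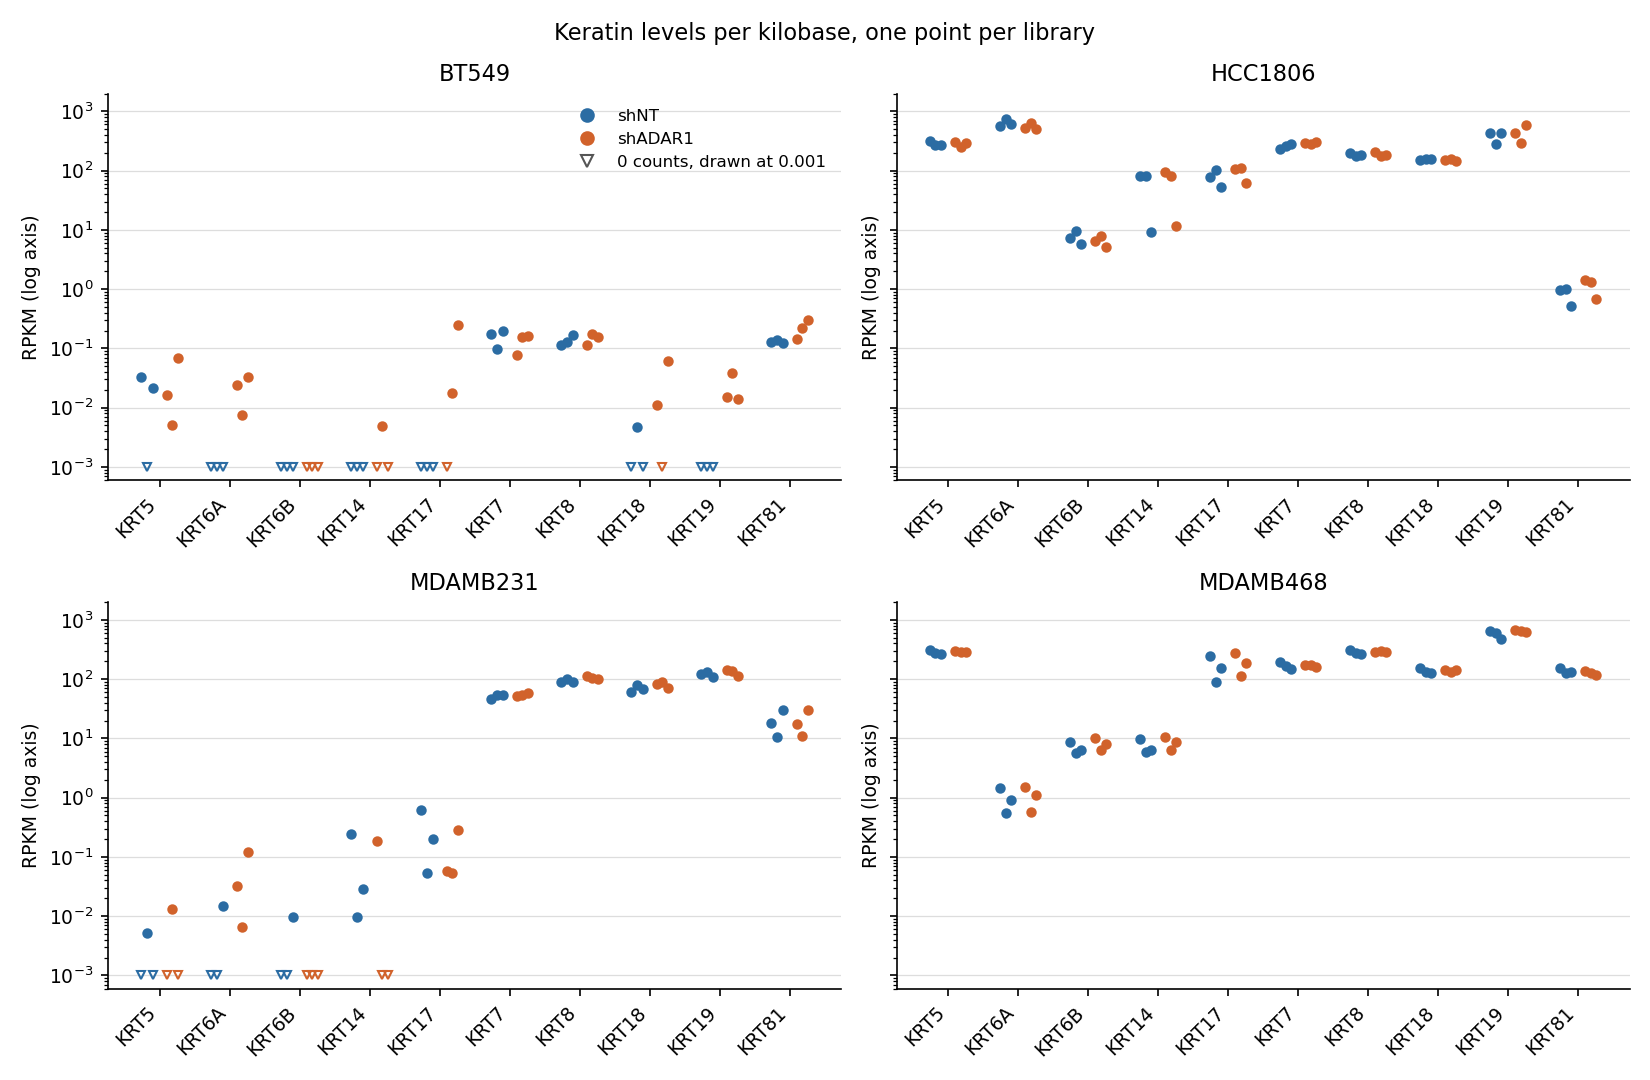
Each point is the RPKM of a keratin in 1 library on a log axis, by line and hairpin, with open triangles for libraries at 0 counts. BT549 points sit at 0 counts or between 0.00479 and 0.305 RPKM. MDAMB231 has KRT7, KRT8, KRT18, KRT19 and KRT81 above 10, and in HCC1806 the KRT14 point of replicate 3 lies apart in both arms.

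Whether a keratin was called after ADAR1 knockdown depended on the fit. When replicate number entered as a block, edgeR called 3 of 10 in BT549 (5.14% of all genes), 3 in MDAMB231 (11.4%) and 5 in the average of the lines (13.2%). Without a block none passed the edgeR test in BT549 (background 0.473% of tested genes called), HCC1806 (0.0468%), MDAMB231 (2.01%) or MDAMB468 (0.0375%), in the average of the lines (2.96%), or in the test of a difference between the lines (0.0234%). At an unadjusted p under 0.05 the counts were 3 of 10 in BT549 (6.42% of all genes), 0 in HCC1806 (4.35%), MDAMB231 (11.7%) and MDAMB468 (3.76%), 3 in the average (12.8%) and 0 for the difference between lines (4.44%). DESeq2 called KRT17 in BT549 and KRT6A and KRT19 in the average. With so few genes called at all in HCC1806 and MDAMB468, counts of 0 there are close to the background. The SE of the log2 change in HCC1806 was 0.604 for KRT14, 0.449 for KRT17 and 0.414 for KRT81, which bounds their changes only loosely, against 0.103 to 0.270 for the other 7.

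In 28 combinations of a keratin and a line every library had at least 10 counts. There the mean level with shADAR1 over that with shNT reached 1.5 in 1, KRT81 in BT549, on 10 to 38 counts per library. The share of all genes that reached 1.5 was not counted, so this count has no background beside it. In HCC1806 KRT5 read 1280, 1060 and 1250 CPM after knockdown and KRT6A 1550, 1880 and 1450, each overlapping its control libraries (log2 changes -0.05, SE 0.207, and -0.20, SE 0.270). KRT19 read 994, 682 and 1350 CPM (log2 change 0.18, SE 0.190, and 0.05, SE 0.193, without both libraries numbered 3). In MDAMB468 KRT5 read 1290, 1250 and 1250 CPM and KRT17 712, 283 and 473, again overlapping the controls. All 10 keratins overlapped between the arms in HCC1806, MDAMB231 and MDAMB468, where the arms did not overlap for 7.58%, 14.2% and 11% of all tested genes. The plot of changes by keratin and line shows most points near 0, with wide error bars for KRT14 and KRT17 in the fit without a block.

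**Figure D3:**
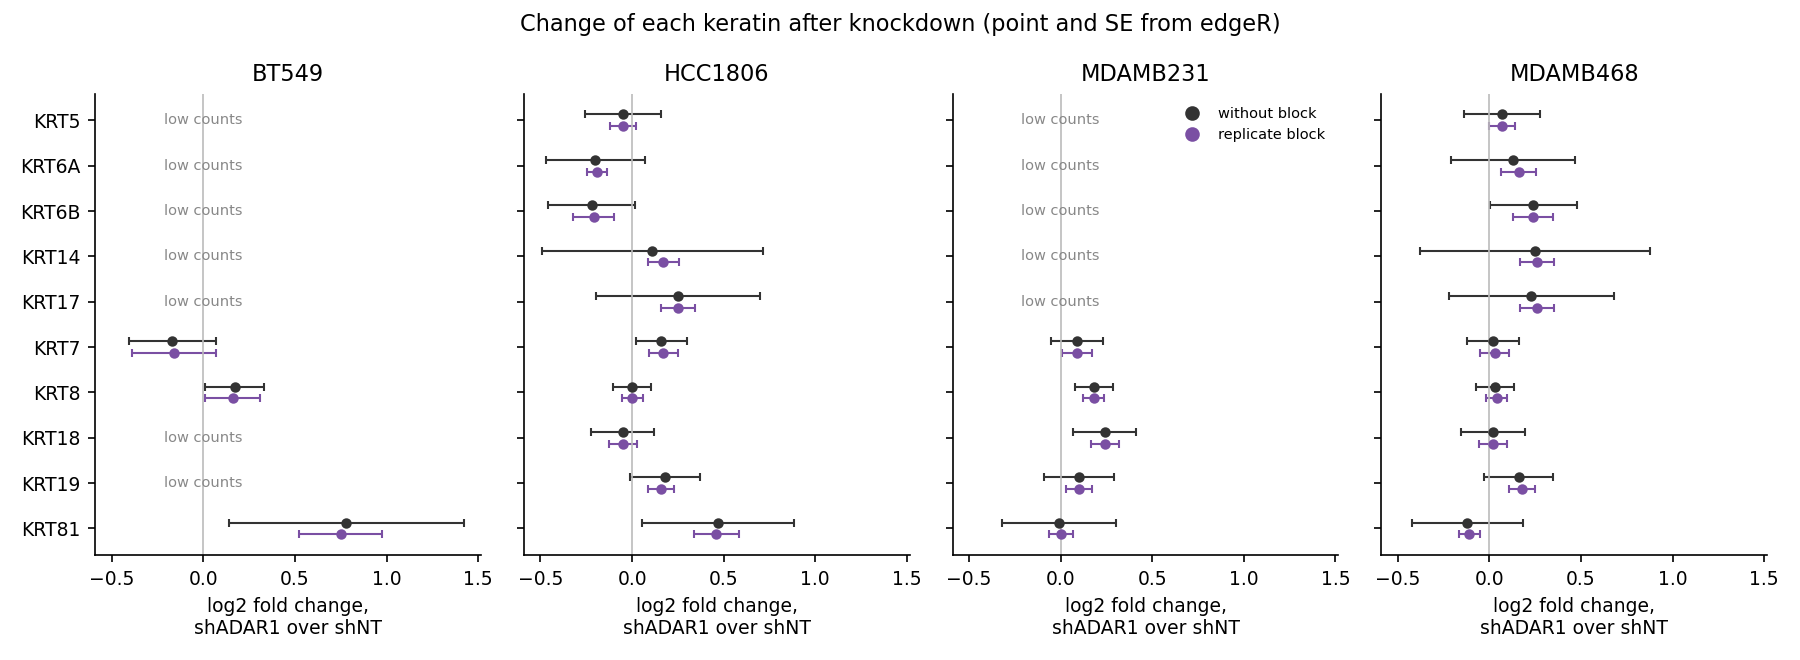
Points give the log2 fold change of each keratin, shADAR1 over shNT, with its SE as bars, from the edgeR fit without a block and with the replicate number as a block; keratins with under 10 counts in any library of a line are marked low counts. KRT81 in BT549 lies at 0.78, the farthest from 0 of the points drawn.

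Libraries with the same replicate number deviated together in BT549, HCC1806 and MDAMB231, and a fit with the number within each line as a block called more keratins. In MDAMB231 the simple pair passed with this replicate block. KRT8 read 441, 504 and 456 CPM with shNT and 558, 531 and 502 with shADAR1, higher with shADAR1 in 3 of 3 numbers (log2 change 0.18, SE 0.0578, edgeR adjusted p = 0.0436 with the block and 0.537 without). KRT18 read 196, 252 and 221 against 268, 293 and 232 CPM, also higher in 3 of 3 (log2 change 0.24, SE 0.0770, adjusted p = 0.0461 with the block and 0.677 without). KRT6A was called there too, on 2, 1 and 15 counts against 0, 0 and 2 (adjusted p = 0.00309). In all 3 of 10 were called in MDAMB231, all higher, where the block called 11.4% of all genes and 5.09% as higher. The block called 0 of 10 in HCC1806 (2.1% of genes); the smallest adjusted p was that of KRT81, 0.0536, with 2.78, 2.58 and 1.34 CPM against 1.89, 1.91 and 1.00. It called 0 of 10 in MDAMB468 (1.66%), where 1 same-numbered pair did not deviate together.

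In BT549 the block called KRT6A, KRT19 and KRT17, each higher (background 5.14%, higher 2.48%), and all 3 rest on a handful of counts. KRT6A had 0 counts in the control libraries and 4, 2 and 6 after knockdown. KRT19 had 0 against 2, 8 and 2. Over the group of 3 libraries, shADAR1 stood at 3.15 times the floor of 3 counts for KRT6A and for KRT19. The lower 95% bound of the ratio of the arms from counting error was 2.19 for each. KRT17 had 0 against 0, 4 and 38, or 11 times the floor (lower bound 8.57), with 38 of its 42 counts in replicate 3. The adjusted p with the block was 0.00761 for KRT6A, 0.0293 for KRT19 and 0.00582 for KRT17, against 0.811, 0.411 and 0.755 without. KRT18 followed with 2, 0 and 12 counts against 0, 1 and 0, and KRT5 with 4, 2 and 18 against 8, 0 and 4, so replicate 3 was the highest for both. KRT18 passed the fit without a block only when BT549 shADAR1 replicate 2 was left out (log2 change 3.79, adjusted p = 0.0449). The epithelial list, which includes KRT8 and KRT18, summed to 1.91 to 3.21 CPM in the BT549 controls and 2.18 to 3.40 after knockdown, and its part in these calls was not tested. CLDN4, most of that sum, read 1.65, 1.19 and 2.33 CPM under shNT and 1.46, 1.15 and 2.19 after knockdown, lower in 3 of 3 numbers, while EPCAM had 0 counts in the controls and 0, 2 and 1 after knockdown. In bulk RNA, a few cells with more keratin and a trace in every cell cannot be told apart. Whether all of these few counts came from BT549 RNA was not tested, and HCC1806 libraries held up to 127723 KRT6A counts.

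KRT81 also separated the arms in BT549, with 14, 17 and 10 counts (0.248, 0.262 and 0.233 CPM) under shNT and 16, 38 and 36 (0.281, 0.419 and 0.589 CPM) after knockdown. KRT6A, KRT19 and KRT81 were the 3 of 10 whose arms did not overlap, all higher, beside 8.24% of all genes higher without overlap. The log2 change of KRT81 was 0.78 (SE 0.640), with an adjusted p of 1 without the block in edgeR and 0.0707 with it. KRT86, its near copy, took 12.5, 29.2 and 37.5% of the summed KRT81 and KRT86 counts under shNT. After knockdown it took 11.1, 32.1 and 0%. With both copies summed the arms overlapped, and the log2 change of 0.61 (SE 0.527, without the block) was not called. In the average over the lines the block called KRT81 (log2 change 0.27, SE 0.0680, adjusted p = 0.00851), KRT6A (6.29e-05), KRT17 (0.00553), KRT19 (0.0066) and KRT18 (0.0411), 5 of 10, all higher, beside 13.2% of all genes and 7.25% higher. The log2 changes of BT549 in that fit, 4.58 for KRT6A, 6.16 for KRT17, 4.51 for KRT19 and 2.92 for KRT18, were the largest of the 4 lines, and they rest on the few counts given above. The difference between the lines was called with the block for 3 of 10, KRT6A, KRT17 and KRT81, beside 4.69% of all genes.

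Several keratins differed between replicate numbers. The highest mean over a number was at least 1.5 times the lowest in 5 of 10 keratins in HCC1806 (23.7% of all genes with at least 10 counts in each library of the line), 4 of 10 in MDAMB468 (11%), 1 of 5 in MDAMB231 (17.2%) and 1 of 3 in BT549 (11.3%). KRT14 in HCC1806 is the widest case. It read 184 and 187 CPM in control replicates 1 and 2 and 20.8 in replicate 3, and 213, 184 and 26.6 with shADAR1, so number 3 was low in both arms by a ratio of 8.37 between the highest and lowest number. A joint test of the replicate number in the blocked fit, chosen after its values were seen, gave an edgeR adjusted p of 1.25e-12. In all 6 of 10 keratins passed that test in HCC1806, where 29.5% of all genes did.

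The keratins that shifted in HCC1806 did not shift together. KRT17 was lowest at number 3, with 136 CPM under shNT and 154 under shADAR1, against 198 to 278 in the other 4 libraries (adjusted p = 3.22e-05). KRT81 was lowest there as well, at 1.00 and 1.34 CPM (2.04e-05). KRT19 was highest at number 3, with 1010 and 1350 CPM, and lowest at number 2, with 653 and 682 (3.24e-06). KRT6A (0.000462) and KRT6B (0.00354) were highest at number 2. KRT5, KRT7, KRT8 and KRT18 did not pass, and KRT18 read 463 to 514 CPM in all 6 libraries.

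Beyond the 10, 2 genes named after their values were seen also stood apart at number 3 in HCC1806. KRT13, a type I keratin of suprabasal mucosa, read 170 CPM under shNT and 297 under shADAR1 at number 3, against 48.0 to 63.9 in the other libraries. VIM, the mesenchymal filament protein vimentin, read 1.68 and 3.47 CPM there, against 7.43 to 19.7. EPCAM stood at 281 to 317 CPM in all 6.

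In MDAMB231 KRT81 followed the number in both arms. It read 35.1, 20.2 and 57.6 CPM under shNT and 34.3, 20.9 and 57.1 under shADAR1, so same-numbered libraries lay close together while the numbers differed by a ratio of 2.80 (edgeR adjusted p for the number 1.1e-10). KRT19 passed as well (0.0399), with number 3 lowest at 250 and 264 CPM. KRT6A, KRT14 and KRT17 passed on few counts, which makes 5 of 10 beside 20.8% of all genes. KRT14 had 6, 1 and 3 counts under shNT and 9, 0 and 0 under shADAR1. In BT549 KRT5, KRT17 and KRT18 passed on the counts given above, 3 of 10 beside 8.76%.

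In MDAMB468 KRT17 read 632, 228 and 387 CPM under shNT and 712, 283 and 473 under shADAR1. KRT6A read 4.32, 1.62 and 2.64 against 4.43, 1.67 and 3.27 CPM, and KRT14 21.9, 13.3 and 14.5 against 24.4, 14.8 and 20. Number 2 was lowest for these 3 keratins in both arms, and the ratio of the highest to the lowest number was 2.63 for KRT17 and 2.66 for KRT6A. These 3 and KRT6B passed the test of the number, 4 of 10 beside 3.41% of all genes. The simple keratins stayed closer, with ratios of 1.07 (KRT8) to 1.20 (KRT7 and KRT19).

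**Figure D4:**
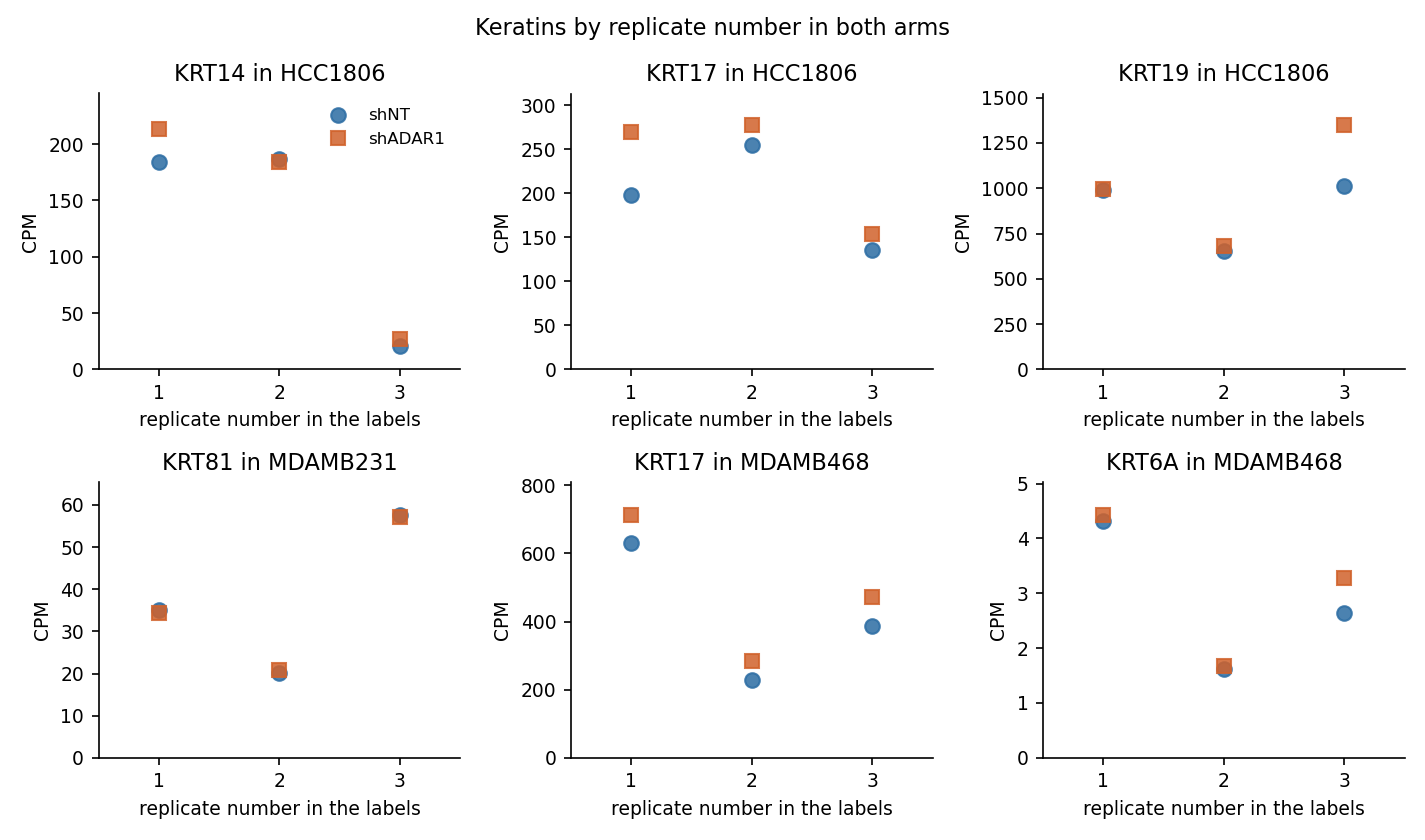
Points give CPM in each library against the replicate number of the labels, with circles for shNT and squares for shADAR1. The 6 combinations drawn are a selection from the 28 with at least 10 counts in every library. Of those 28, 10 had the same order of numbers in both arms (29.7% to 47.1% of all genes by line). Number 3 of KRT14 in HCC1806 lies at 20.8 and 26.6 CPM. Not all same-numbered libraries lie close, and number 3 of KRT19 in HCC1806 lies at 1010 and 1350 CPM.

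The other genes of the filament system showed few knockdown calls in the edgeR fit without a block. All calls in this paragraph are from that fit, which called none of the 10 keratins. It called 2.01% of all genes in MDAMB231 and 2.96% in the average over lines. Calls of these lists with the block are not reported here. None of 27 tested other keratins (of 45 with a row) passed in any knockdown comparison. Their median log2 change lay between -0.07 and 0.00, beside 0.00 to 0.02 over all genes. Of 18 genes of desmosomes and hemidesmosomes, which anchor the filaments, 1 passed. DSC2, a desmosomal cadherin, fell in MDAMB231 from 20.9, 22.9 and 20.3 CPM to 9.58, 13.8 and 13.6, without overlap (log2 change -0.78, SE 0.157, edgeR adjusted p = 0.00777). Of 19 transcription factors of epithelial identity, TP63, the master factor of basal cells, fell in MDAMB231 (log2 change -1.28, SE 0.296, adjusted p = 0.0194) at a level near 1 CPM. GATA3, a luminal factor, rose in the average over lines (log2 change 0.33, SE 0.0897, adjusted p = 0.0486), narrowly past the threshold. Of 11 tested other intermediate filament genes, 6 repressors of epithelial genes (ZEB1, ZEB2, SNAI1, SNAI2, TWIST1, TWIST2) and 11 tested keratin-binding and cornified envelope genes, 0 passed.

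Between the lines these genes showed large differences under the control hairpin. Of the 27 other keratins, 21 differed between BT549 and HCC1806 (63.5% of all genes), 20 of them lower in BT549 (33.9%), with a median log2 difference of -4.50 beside -0.08 over all genes. The highest of them per kilobase were KRT80, KRT23 and KRT10. KRT80, a keratin of differentiating epithelium, read 122 ± 25.1 CPM in BT549 and 144 ± 8.81 in MDAMB231, so it stood high in the line where the 10 keratins were near 0. KRT23 read 221 ± 33.6 CPM in MDAMB468, 0.782 ± 0.270 in HCC1806 and 0 in BT549. KRT10, a keratin of suprabasal epidermis, read 50 ± 14.9 CPM in MDAMB468 and 10.2 to 17.3 CPM on average in the other lines.

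Of the anchoring genes, PLEC (plectin) read 3520 ± 382 CPM in BT549 and 7780 ± 876 in HCC1806. ITGA6 (integrin alpha 6) read 1040 ± 212 CPM in HCC1806 and 91.3 ± 21.3 in BT549, and ITGB4 (integrin beta 4), its hemidesmosomal partner, 1290 ± 214 CPM in HCC1806, 328 ± 21.2 in MDAMB231, 89.0 ± 8.50 in MDAMB468 and 0.634 ± 0.257 in BT549. Of the 18 anchoring genes, 18 differed between BT549 and HCC1806, 16 of them lower in BT549, beside 63.5% and 33.9% of all genes. Between BT549 and MDAMB231 14 differed, all lower in BT549 (56.5%, lower 28.1%). The calls of BT549 against MDAMB468 and of MDAMB231 against MDAMB468 were mixed, although all 10 keratins were lower in the first line. Between BT549 and MDAMB468 10 were lower in BT549 and 6 higher (61%, lower 30.5%). Between MDAMB231 and MDAMB468 7 were lower in MDAMB231 and 8 higher (61.8%, lower 30.6%). Between HCC1806 and MDAMB231 15 were higher in HCC1806 and 1 lower (59%, higher 31.4%), where 9 keratins were higher and 1 lower. Between HCC1806 and MDAMB468 14 were higher in HCC1806 and 2 lower (62.9%), where 3 keratins were higher and 4 lower.

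VIM, which encodes vimentin, was high in the lines with the lower keratin sums, and of these MDAMB231 stood above BT549 in both VIM and keratin. It read 2310 ± 332 CPM in BT549 and 4300 ± 374 in MDAMB231, against 7.96 ± 6.56 in HCC1806 and 8.15 ± 0.961 in MDAMB468. LMNA and LMNB2, which encode nuclear lamins, were within a narrower range, with LMNA at 578 ± 84.5 CPM in HCC1806 and 864 ± 88.2 in MDAMB231, and LMNB2 at 246 ± 6.72 in MDAMB468 and 612 ± 41.4 in HCC1806.

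Among the factors, EHF read 384 ± 66.9 CPM in HCC1806, 207 ± 35.6 in MDAMB468 and 33.8 ± 20.7 in MDAMB231. KLF5, a factor of basal and proliferating epithelium, read 282 ± 47.2 CPM in HCC1806, 73.2 ± 20.9 in MDAMB468, 35.8 ± 5.13 in MDAMB231 and 3.96 ± 2.01 in BT549. SOX9 was higher in MDAMB231 (252 ± 21.9 CPM) than in BT549 (64.7 ± 3.54) and HCC1806 (38.7 ± 18.5). TP63 stood at 174 ± 30.7 CPM in HCC1806 and at 0.962 ± 0.192 in MDAMB468, 2 lines with like levels of KRT5. Of the repressors, ZEB1 read 128 ± 7.32 CPM in BT549 and 132 ± 7.53 in MDAMB231 against 2.03 ± 0.314 in HCC1806 and 0.257 ± 0.0693 in MDAMB468. TWIST1 read 114 ± 19.5 CPM in BT549 and 0 in MDAMB231, and SNAI2 read 74.7 ± 4.96 CPM in BT549, 50.8 ± 9.37 in HCC1806 and 0 in MDAMB468.

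Of the keratin-binding genes, SFN (stratifin, which binds KRT17 and KRT18) read 437 ± 87.3 CPM in HCC1806 and 0.282 ± 0.203 in BT549. FAM83H, which recruits the kinase CSNK1A1 to keratin filaments, read 811 ± 21.7 CPM in HCC1806, 155 ± 4.94 in MDAMB468, 9.90 ± 0.912 in BT549 and 1.73 ± 0.398 in MDAMB231. CSNK1A1 itself lay between 291 ± 4.98 and 382 ± 18 CPM in the 4 lines.

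Likeness of pattern was taken as Pearson's r of log2 CPM over the 24 libraries, among 11000 genes of sufficient level. The libraries form 4 clusters by line, so r describes mostly the order of the lines and carries no test. Among the simple keratins, KRT8 was most like STK26 (r = 0.9989), KRT19 (0.998) and TSPAN15 (0.9965), and KRT19 had KRT8 (0.998) and STK26 (0.9973) among its 3 most like genes. KRT18 was most like PLXNA2 (0.9967), TMC6 (0.9953) and MGST1 (0.9951), and KRT7 most like LPCAT2 (0.9948), TSPYL5 (0.9941) and TINAGL1 (0.9938). Among the basal keratins, KRT5 was most like CDH1 (0.9918), which encodes E-cadherin, INAVA (0.9893) and CDS1 (0.9882), and KRT6B most like KRT5 (0.9928), MYH14 (0.9905) and CDH1 (0.9905). KRT17 was most like MX1 (0.9814), ANO1 (0.981) and SLC37A1 (0.9807), KRT14 most like CAPRIN1 (0.9778), MX1 (0.9751) and DLG5 (0.9745), and KRT6A most like a gene without a symbol (0.9823), XDH (0.9811) and ZNF544 (0.9803). KRT81 had LXN (0.9809) and INSIG2 (0.9801) among its 3 most like genes. Between members, r was 0.821 for KRT5 with KRT6A and 0.937 for KRT5 with KRT14. For KRT81 it ran from 0.651 (KRT7) to 0.739 (KRT8) with the simple keratins, and from -0.054 (KRT6A) to 0.501 (KRT17) with the basal keratins.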

How the data were processed

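Per the labels' protocols, libraries were made from 1 µg of total RNA with a ribosomal RNA depletion kit. Per the submitters' processing notes the tools were bcl2fastq, STAR, Subread featureCounts and edgeR; the genome build, strand setting and treatment of multiply matching fragments are not given in the sources used here. The deposited files hold raw read counts per gene, and CPM and RPKM values made by the authors from those counts, which are unscaled: CPM recomputed from the counts and totals differed by at most 4.7e-11. Depth was 10370645 to 97218217 counts per library, and intervals and floors cover counting error only.

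From the deposited counts, CPM and RPKM were computed here with TMM scaling (factors 0.924 to 1.12) and the listed lengths. Tests used edgeR 4.0.16 (quasi-likelihood, R 4.3.3) in 1 model of 8 groups over 21352 genes kept by filterByExpr, with Benjamini-Hochberg adjustment at 0.05 over all of them, two-sided. The script was tested on simulated data. DESeq2 1.42.0, other scalings and filters, summed copies, left-out libraries and a replicate block were alternatives. No deposited gene carried the symbol of a pseudogene of KRT8, KRT18, KRT19, KRT14, KRT16 or KRT17, so such genes could not be described.

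The labels give both arms the same replicate numbers. Same-numbered deviations from the group means correlated at 0.139, 0.158 and 0.25 in BT549, and at 0.242, 0.332 and 0.443 in HCC1806. In MDAMB231 they correlated at 0.204, 0.348 and 0.149, and the numbers were read as pairs in these lines. In MDAMB468 the values were 0.165, 0.166 and 0.0651, and the numbers were not read as pairs because of the last. The first values of MDAMB468 exceed the 0.139 of BT549, so the lines are not sharply divided. The replicate block held number terms for all 4 lines, MDAMB468 included.

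The members and lists were chosen with earlier results of these data known. Beside the 10 keratins, genes named are those of the lists called after knockdown (up to 4 per list and comparison), the 3 highest per list by RPKM in the controls, and the 3 most like each keratin, of which 2 are not reported here; exceptions are marked.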

Additional observations from a re-analysis of the deposited data

Results flagged for a closer look

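Groups of 3 libraries are too small for a test of single outlying samples. The knockdown change differed between the lines for 3 keratins in the edgeR fit with the replicate block and for none without it (4.69% of all genes with the block, 0.0234% without). For KRT6A the adjusted p of the difference was 0.000915, where the log2 change was 4.58 in BT549, 3.01 in MDAMB231, -0.19 in HCC1806 and 0.16 in MDAMB468, and the BT549 and MDAMB231 values rest on the few counts given above. For KRT81 it was 0.0156, with log2 changes of 0.75, 0.00, 0.46 and -0.11 in the same order. For KRT17 it was 0.0414, with 6.16, -0.39, 0.25 and 0.26, and 38 of the 42 BT549 counts are in 1 library.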

How the results depend on the processing

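With the replicate block, the keratins called after knockdown were 3 in BT549, 3 in MDAMB231, 5 in the average and 3 for the difference between lines, against 0 without it; the block changed no other count of calls. DESeq2 called 1 in BT549 and 2 in the average, and without a filter on low counts 1 (KRT19, adjusted p = 0.0398) was called in the average. Leaving out 1 library gave 0 to 1 called in BT549 and in the average (KRT18 without BT549 shADAR1 replicate 2, KRT19 without HCC1806 shADAR1 replicate 2), and 0 in the other knockdown comparisons. Requiring at least 10 counts in every library left KRT7, KRT8 and KRT81, and all 3 of these differed in the joint control test and in each of the 6 pairs. Leaving out 1 library gave 5 to 7 called between BT549 and MDAMB231, 6 to 7 between HCC1806 and MDAMB468 and 10 in the other control tests. The summed control level then ran from 0.408 to 0.476 RPKM in BT549, 2030 to 2060 in HCC1806, 345 to 363 in MDAMB231 and 1620 to 1860 in MDAMB468, and the authors' unscaled RPKM gave 1940 in HCC1806 and 1930 in MDAMB468. The causes were not tested. No call reversed in any alternative run. The joint test of the replicate number, added after the data were seen, passed for 4 of 10 in MDAMB468 (KRT17, KRT6A, KRT14 and KRT6B, beside 3.41% of genes) and for 5 under RLE or upper-quartile scaling, where KRT81 was added. BT549 and MDAMB231 values of keratins with under 10 counts in a library rest on few counts.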
